A study of Rattus norvegicus with 18 samples.

Results

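The proximal Dlk1-Dio3 miRNAs are the small RNAs cut from hairpins that lie around the retrotransposon-like gene Rtl1, in the imprinted region between the protein genes Dlk1 and Dio3. Rows named miR-127, miR-136, miR-337, miR-341, miR-370, miR-431, miR-433, miR-434 or miR-493 were taken from the deposited lists, and the 10 of these 16 rows with the highest mean level over all libraries were kept, out of 599 listed rat miRNAs. The cut from 16 rows to 10 was chosen by mean level alone, while the hairpins themselves were picked with earlier results of these data known. The level is the deposited normalised read count, in reads per 1000000 (RPM) of a library-specific read total. Small RNA had been sequenced from heart tissue of QDG-treated spontaneously hypertensive rats (QDG), of spontaneously hypertensive rats given NS (SHR) and of Wistar Kyoto rats (WKY, labelled normal), with 6 libraries in each of the 3 groups. SHR is an inbred strain that develops high blood pressure, and WKY is its usual normotensive comparison strain. QDG and NS are not spelled out in the sources used here, nor are the dose, the age or the sex of the rats or what WKY rats were given. Both SHR groups differ from WKY in strain, so strain, blood pressure (for which no values were used here) and, for QDG, treatment cannot be told apart in comparisons with WKY.

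In mammals the region is expressed by parent of origin. The paternal copy produces Dlk1, Rtl1 and Dio3 mRNA, while the maternal copy produces long noncoding transcripts, of which Meg3 is the first, and the miRNAs are processed from these. Several of the proximal hairpins are transcribed antisense to Rtl1 and match its mRNA perfectly, and in mouse miR-127 and miR-136 direct cleavage of that mRNA. A miRNA finds most other targets through its seed, the stretch of bases 2 to 8 from its 5′ end.

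RefSeq's rat assembly GRCr8 held the mature sequence of 9 of the 10 miRNAs, and miR-136-5p is named only. They are shown because their seeds set which transcripts each can pair with, and the seed is in capitals. All lie on the plus strand, and the 8 hairpins that give the 10 miRNAs run from miR-493 to miR-370 over chr6:134314731-134354569. The hairpins of miR-433, miR-127, miR-434 and miR-136 lie within the annotated Rtl1 gene, and those of miR-493 and miR-337 precede it and those of miR-341 and miR-370 follow it in the direction of miRNA transcription.
miR-493-5p: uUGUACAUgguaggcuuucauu
miR-337-5p: cGGCGUCAugcaggaguugau
miR-433-3p: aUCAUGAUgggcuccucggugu
miR-127-3p: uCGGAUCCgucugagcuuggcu
miR-434-5p: aGCUCGACucaugguuugaacca
miR-434-3p: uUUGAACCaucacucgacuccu
miR-136-3p: cAUCAUCGucucaaaugagucu
miR-341: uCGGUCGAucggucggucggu
miR-370-3p: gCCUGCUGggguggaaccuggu
No seed occurred more than once among these 9 sequences, and 0 other listed miRNAs with a sequence in the same table shared bases 2 to 8 with any of them. The 9 are 21 to 23 bases long. The reference genome is that of another rat strain, and whether SHR or WKY differ from it in these sequences was not tested.

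The libraries held 6420666 to 10169581 reads over miRNAs and detected 486 to 519 miRNAs each. In every library these reads outnumbered the read total used as divisor, with 8574447 against 5898137 in QDG replicate 1. The listed values of a library summed to between 1338745 RPM (SHR replicate 4) and 1508772 RPM (WKY replicate 5). An RPM sum is therefore not a share of the listed reads. Whether some reads were counted for several miRNAs was not tested. The tissue is labelled heart, and the heart-muscle miRNAs (the miR-1, miR-133, miR-208 and miR-499 rows) summed to 492557 to 625638 RPM. Libraries stood apart in other markers. WKY replicate 1 had the lowest sum of the endothelial miR-126 rows, at 88331 RPM, and SHR replicate 5 had the highest sum of the fibroblast-associated miR-199a and miR-214 rows, at 17046 RPM. Results are therefore also given without these 2 libraries where that changed a call.

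Levels within the group of 10 were very uneven. miR-127-3p averaged 101 RPM over the 18 libraries and ranked 146 of the 599 listed miRNAs. Its 265 to 1191 reads per library make it the member measured with the smallest counting error. The arms of miR-434 came next, with 9.27 RPM for miR-434-5p and 6.67 RPM for miR-434-3p. The other 7 averaged between 1.36 and 2.74 RPM and rested on 1 to 26 reads per library, so a single read moved them visibly. None of the 10 was at 0 in any library, and all 10 passed the filter for testing, at least 1 RPM in at least 6 libraries, which 410 of the 599 miRNAs passed. The last row kept was miR-493-5p with a mean of 1.36 RPM, and the first left out was miR-127-5p, the other arm of miR-127, with 1.31 RPM. The other rows left out were miR-493-3p with 1.10 RPM, miR-431 with 0.386 RPM, and miR-337-3p, miR-433-5p and miR-370-5p with 0.0305, 0.0224 and 0.0190 RPM. This ranking chose the members and is given only as a description.

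**Figure D1:**
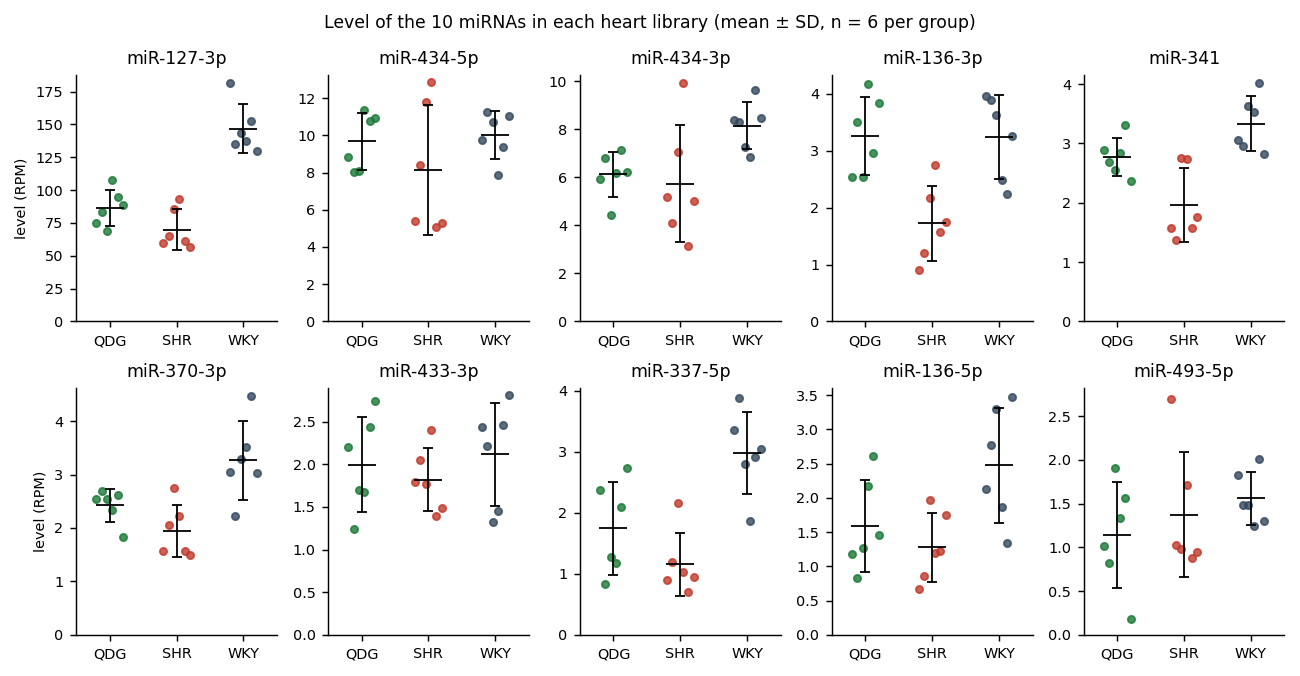
Level of each of the 10 miRNAs in RPM (vertical axes, linear and starting at 0, a separate scale per panel) in QDG, SHR and WKY heart libraries. Points are libraries, and bars give the mean ± SD of 6 libraries; miR-127-3p in WKY lies at 129.9 to 181.7 RPM, above every QDG and SHR library.

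The comparison of SHR with WKY hearts asks how the hypertensive strain differs from the normotensive strain. In SHR hearts 7 of the 10 miRNAs were lower than in WKY and 0 were higher, by limma with Benjamini-Hochberg adjustment over 410 miRNAs at a threshold of 0.05. Of all 410 miRNAs, 15.1% were called lower. The median log2 fold change of the 10 was -0.55, against -0.07 for all tested miRNAs. All 10 lay on the lower side, as did 240 of the 410. The members are not separate observations in these or the later counts. Some are arms of the same hairpin, as both arms of miR-136 are among the 7, and all come from the same region. The hairpins were also picked with earlier results of these data known, so the counts only describe. Fold changes are on the log2(RPM + 1) scale, which understates the change of the scarce members. In bulk tissue, fewer cells of a type and less RNA per cell cannot be told apart. Changes of scaling moved the split of all calls, with 33 higher and 62 lower as reported but 49 higher and 38 lower after upper-quartile scaling, and 0 members were called higher under each scaling.

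Among the tested members made antisense to Rtl1, miR-127-3p had the largest difference on the log2(RPM + 1) scale. It had a lowest, median and highest level of 56.3, 62.9 and 92.9 RPM in SHR libraries, against 130, 140 and 182 RPM in WKY libraries. The groups did not overlap, and the mean of 70.0 ± 15.3 RPM in SHR was 2.10-fold lower than the 147 ± 18.8 RPM in WKY (SD, n = 6 each). Its log2 fold change was -1.07 ± 0.13 (SE), with a limma adjusted p of 2.62e-07 and the fifth lowest value among the 410 (rank 5). Over all alternatives and with any library left out its adjusted p stayed at or below 2.93e-05.

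Both arms of miR-136 were lower as well. miR-136-3p had 0.899, 1.66 and 2.74 RPM as lowest, median and highest in SHR, against 2.24, 3.44 and 3.97 RPM in WKY. In 5 of 6 SHR libraries it lay under every WKY library, and the log2 fold change was -0.66 ± 0.17 with a limma adjusted p of 0.00684. miR-136-5p, the opposite arm of the same hairpin, had 0.674, 1.21 and 1.96 RPM in SHR, against 1.34, 2.45 and 3.47 RPM in WKY. Its groups overlapped, with 4 of 6 SHR libraries under every WKY library. The log2 fold change of miR-136-5p was -0.60 ± 0.20 with a limma adjusted p of 0.0268. That call was lost when SHR replicate 1 or 2 or WKY replicate 2, 3 or 6 was left out, with limma adjusted p-values of 0.0738, 0.0668, 0.0556, 0.0681 and 0.0741. It was also lost under upper-quartile scaling, DESeq2 and limma-voom, with adjusted p-values of 0.0501, 0.0582 and 0.0549.

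miR-434, a rodent hairpin, gave the next most abundant reads and a weaker difference. The 3p arm had 3.14, 5.08 and 9.94 RPM in SHR, against 6.83, 8.35 and 9.62 RPM in WKY. SHR replicate 4 exceeded every WKY library while 4 of 6 SHR libraries lay under all of them. The log2 fold change of miR-434-3p was -0.51 ± 0.18 with a limma adjusted p of 0.0362, a call that each of the 4 other scalings removed, with limma adjusted p-values of 0.0687 to 0.0990, as did edgeR, DESeq2 and limma-voom, with 0.119, 0.149 and 0.0558. The miR-434-3p call was also lost in a fit of only these 2 groups and with no filter, at limma adjusted p-values of 0.0614 and 0.0517. It was also lost without any of SHR replicates 1, 2, 5 and 6, at limma adjusted p-values of 0.0623, 0.0973, 0.106 and 0.0636, and without any of WKY replicates 1, 2, 5 and 6, at 0.0560, 0.0625, 0.0927 and 0.0658. With WKY replicate 1 and SHR replicate 5 both left out, miR-434-3p had a limma adjusted p of 0.138, and the other 6 calls held.

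Calls were not made for the remaining miRNAs within Rtl1. miR-434-5p had 5.07, 6.89 and 12.9 RPM in SHR, against 7.87, 10.2 and 11.3 RPM in WKY, and its SHR libraries spread on both sides of the WKY range. Its log2 fold change of -0.35 had a 95% interval of -0.73 to 0.03 and a limma adjusted p of 0.189; without SHR replicate 4 it was -0.49, with a limma adjusted p of 0.0468. miR-433-3p, reported in rodent hearts to favour fibrosis, had 1.40, 1.78 and 2.40 RPM in SHR, against 1.32, 2.33 and 2.82 RPM in WKY. The ranges overlapped almost fully, and the log2 fold change of miR-433-3p was -0.13, with a 95% interval of -0.48 to 0.22 and a limma adjusted p of 0.633.

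Of the 4 members outside Rtl1, 3 were called lower in SHR. miR-337-5p, upstream of Rtl1, had 0.699, 0.987 and 2.16 RPM in SHR, against 1.86, 2.97 and 3.88 RPM in WKY. In 5 of 6 SHR libraries it lay under all WKY libraries; the mean was 2.58-fold lower and the log2 fold change was -0.89 ± 0.19 with a limma adjusted p of 0.000869. The count tests on the recovered reads gave miR-337-5p log2 fold changes down to -1.34, and a pseudocount of 5 RPM gave -0.37; it was called under each alternative in which it was tested.

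Downstream of Rtl1, miR-341, which is known in rodents, had 1.37, 1.66 and 2.75 RPM in SHR, against 2.82, 3.29 and 4.03 RPM in WKY. Its groups did not overlap, although the highest SHR and lowest WKY library were close together. The log2 fold change of miR-341 was -0.57 ± 0.15 with a limma adjusted p of 0.00687. Groups without overlap, SHR under WKY, occurred for 2 of the 10 members and for 6.83% of the 410 miRNAs.

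miR-370-3p, reported in human liver cells to repress the fatty-acid carrier enzyme CPT1A, had 1.49, 1.81 and 2.75 RPM in SHR, against 2.22, 3.17 and 4.47 RPM in WKY. In 4 of 6 SHR libraries it was under every WKY library, and its log2 fold change of -0.53 ± 0.15 had a limma adjusted p of 0.0128. DESeq2 did not call it, with an adjusted p of 0.0630. miR-493-5p, the first hairpin of the run, had 0.873, 1.00 and 2.70 RPM in SHR, against 1.24, 1.48 and 2.01 RPM in WKY. The SHR range enclosed the WKY range, with 4 of 6 SHR libraries under every WKY library and 1, SHR replicate 1, above all of them. The log2 fold change of miR-493-5p was -0.15 with a 95% interval of -0.57 to 0.28 and a limma adjusted p of 0.667.

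**Figure D2:**
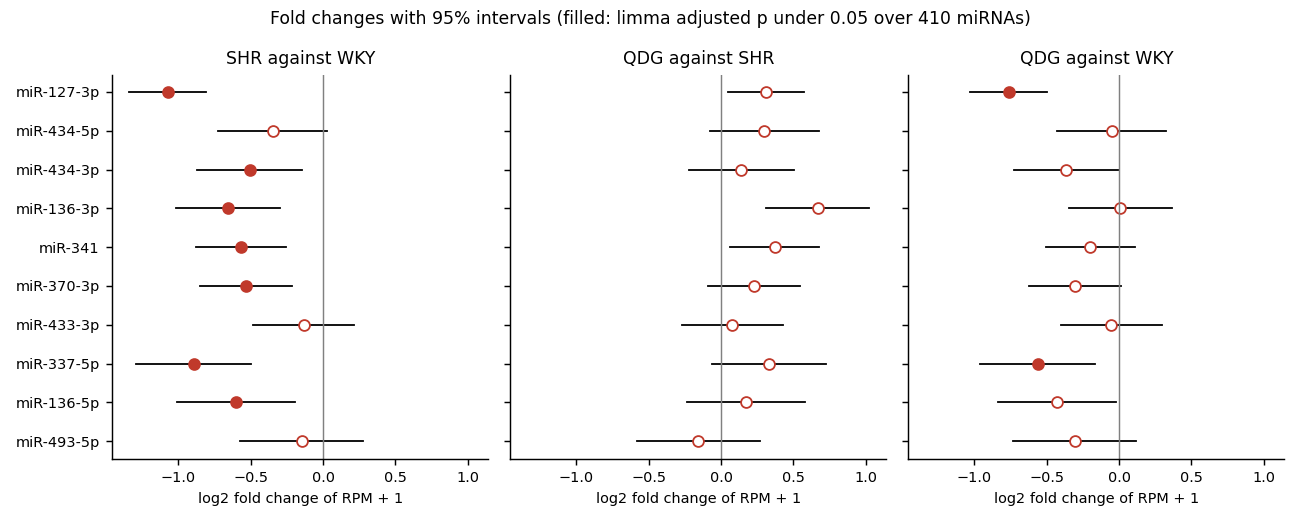
Log2 fold change of RPM + 1 (horizontal axis) of each of the 10 miRNAs in the 3 comparisons, with 95% intervals from limma; filled points have an adjusted p under 0.05 over 410 miRNAs. The SHR against WKY panel holds 7 filled points, QDG against SHR 0 and QDG against WKY 2.

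Among the rows below the abundance limit, miR-431, also antisense to Rtl1, was not tested. Its reads summed to 6 over the QDG libraries, 6 over the SHR libraries and 25 over the WKY libraries. miR-127-5p averaged 1.41 ± 0.821 RPM in QDG, 0.819 ± 0.499 RPM in SHR and 1.71 ± 0.666 RPM in WKY (SD, n = 6 each). miR-493-3p averaged 1.00 ± 0.533, 0.767 ± 0.381 and 1.52 ± 0.518 RPM in the same order. Both were tested and were called in no comparison. In SHR against WKY the log2 fold changes were -0.58 for miR-127-5p and -0.52 for miR-493-3p, with limma adjusted p-values of 0.0780 and 0.0719.

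The comparison of QDG with SHR hearts asks what the treatment changed within the hypertensive strain. By limma 0 of the 10 members and 0 of all 410 miRNAs were called in either direction (0%), while 15 of the 410 and 3 of the 10 members had an unadjusted p under 0.05. edgeR, DESeq2 and limma-voom on the recovered reads also called 0 of the 410. In QDG hearts 9 of the 10 members lay on the higher side of SHR, a direction shared by 54.1% of the 410 miRNAs. Their median log2 fold change was 0.26, against 0.02 for all tested miRNAs.

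miR-136-3p had the greatest difference among the 10. It had 2.54, 3.23 and 4.17 RPM as lowest, median and highest in QDG, against 0.899, 1.66 and 2.74 RPM in SHR. All 6 QDG libraries exceeded the SHR mean and 4 of 6 exceeded every SHR library. The log2 fold change of miR-136-3p was 0.67 ± 0.17, with a 95% interval of 0.31 to 1.02, the third highest value of the 410 (rank 3). Its limma adjusted p was 0.189 and its unadjusted p 0.000682, and the adjusted p ranged from 0.0670 to 0.753 when libraries were left out. The mean of 3.26 ± 0.685 RPM in QDG, set against 3.24 ± 0.730 RPM in WKY (SD, n = 6 each), gave a log2 fold change of 0.01 with a 95% interval of -0.35 to 0.37.

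For the most abundant member, miR-127-3p, the levels in QDG were 68.7, 85.9 and 108 RPM as lowest, median and highest, against 56.3, 62.9 and 92.9 RPM in SHR. The ranges overlapped, with 2 of 6 QDG libraries above every SHR library. Its log2 fold change was 0.31 ± 0.13, with a 95% interval of 0.05 to 0.57, an unadjusted p of 0.0228 and a limma adjusted p of 0.983. miR-341 was at 2.37, 2.76 and 3.30 RPM in QDG, against 1.37, 1.66 and 2.75 RPM in SHR. In 3 of 6 QDG libraries it exceeded all SHR libraries, and its log2 fold change of 0.37 ± 0.15 had an unadjusted p of 0.0211 and a limma adjusted p of 0.983. The other 7 members had log2 fold changes of -0.16, for miR-493-5p, to 0.33, for miR-337-5p, and each of their 95% intervals included 0.

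**Figure D3:**
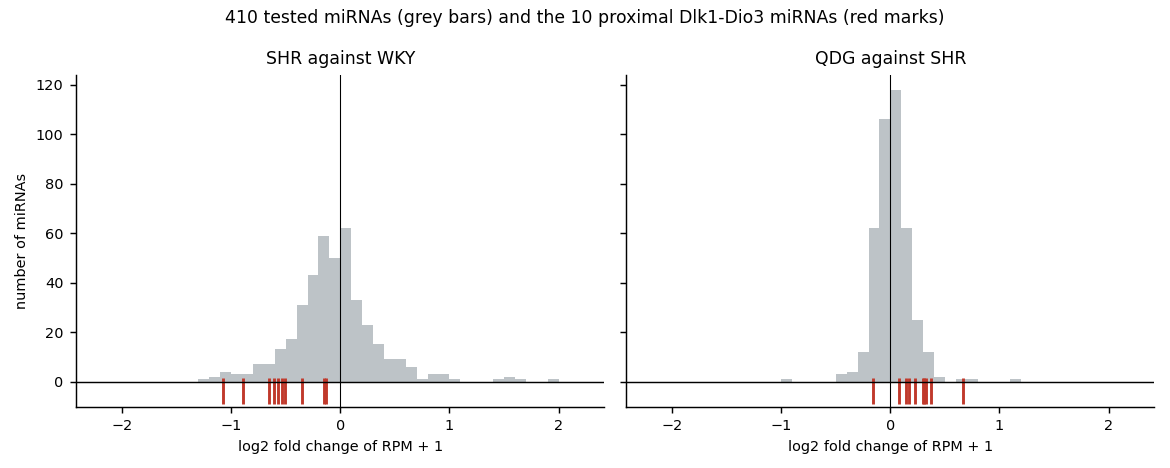
Distribution of the log2 fold change of RPM + 1 (horizontal axis) over 410 tested miRNAs (grey bars, number of miRNAs on the vertical axis), with the 10 members as red marks under the axis. In SHR against WKY all 10 marks lie under 0, with a median of -0.55; in QDG against SHR 9 lie above 0, with a median of 0.26.

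The comparison of QDG with WKY hearts asks how far treated SHR hearts were from the normotensive strain. It shares the QDG libraries with the preceding comparison and the WKY libraries with the first, and those share the SHR libraries, so the 3 comparisons are not independent and their values are only set side by side. In QDG hearts 2 of the 10 members were lower than in WKY by limma and 0 were higher, with 10.5% of the 410 miRNAs called lower. The median log2 fold change was -0.31, against -0.06 for all tested miRNAs.

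miR-127-3p was lower in QDG than in WKY hearts. Its 68.7, 85.9 and 108 RPM in QDG, against 130, 140 and 182 RPM in WKY, did not overlap. This separation, QDG under WKY, held for 1 of the 10 members and for 4.15% of the 410 miRNAs. The mean of 86.4 ± 13.96 RPM in QDG was 1.70-fold lower than that of WKY, and the log2 fold change was -0.76 ± 0.13 with a limma adjusted p of 7.36e-05. Alternatives and left-out libraries kept miR-127-3p called, with adjusted p-values up to 0.000971.

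miR-337-5p was the other call. Its lowest, median and highest levels were 0.826, 1.68 and 2.74 RPM in QDG, against 1.86, 2.97 and 3.88 RPM in WKY. The ranges overlapped, with 3 of 6 QDG libraries under all WKY libraries, and the log2 fold change of -0.56 ± 0.19 had a limma adjusted p of 0.0422. It was lost without QDG replicate 2, 3 or 4, at limma adjusted p-values of 0.109, 0.0864 and 0.0999, and without WKY replicate 1, 2, 3, 5 or 6, at 0.0734, 0.0943, 0.0624, 0.0694 and 0.0707. RLE and upper-quartile scaling, no filter and all 3 count tests gave adjusted p-values of 0.0502 to 0.0948. Without both WKY replicate 1 and SHR replicate 5 the limma adjusted p of miR-337-5p was 0.0681.

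For 3 members the QDG and WKY means lay close together. Against WKY, the log2 fold changes in QDG were 0.01 for miR-136-3p, -0.05 for miR-434-5p and -0.05 for miR-433-3p, and the last 2 changed sign under upper-quartile scaling, to 0.05 and 0.01. miR-434-3p had a log2 fold change of -0.37 with a limma adjusted p of 0.156, and 5 of 6 QDG libraries were under all WKY libraries. miR-136-5p had -0.43 with a limma adjusted p of 0.144. The rest, miR-341, miR-370-3p and miR-493-5p, had log2 fold changes of -0.20, -0.31 and -0.31 with limma adjusted p-values of 0.406, 0.180 and 0.338.

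The ratio between arms of a hairpin compares reads within a library, so scaling enters it only through the 1 RPM added to each arm. It could be formed for miR-136 and miR-434, whose arms were both among the 10. Their precursors are shown with each matched mature arm in capitals, miR-434 at chr6:134330402-134330482 and miR-136 at chr6:134331335-134331416 on the plus strand of GRCr8.
miR-434 precursor: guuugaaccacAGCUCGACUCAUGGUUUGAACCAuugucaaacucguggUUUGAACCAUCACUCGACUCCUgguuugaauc
miR-136 precursor: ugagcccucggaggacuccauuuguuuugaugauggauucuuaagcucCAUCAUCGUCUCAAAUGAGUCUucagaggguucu
The arms of miR-434 share the stretches uuugaacca, of 9 bases, and cucgacuc, of 8 bases, but in the opposite order. Both stretches are much shorter than the arms, of 23 and 22 bases, so a full-length read of one arm does not match the other exactly. No label or header says how shorter or mismatched reads were assigned.

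The log2 ratio of miR-136-5p to miR-136-3p, each with 1 RPM added, was lowest in QDG. It had a lowest and a highest value of -1.30 and -0.13 in QDG, -0.77 and 0.00 in SHR, and -0.66 and 0.07 in WKY, and the groups overlapped. The mean was -0.74 ± 0.39 in QDG and -0.25 ± 0.27 in SHR (SD, n = 6 each), a difference of -0.49 with an exact permutation p of 0.0433, 2-sided, and 0.0866 after adjustment over the 6 ratio tests. QDG and WKY, with -0.30 ± 0.26 in WKY (SD, n = 6), differed by -0.44, with the same exact permutation p of 0.0433 and 0.0866 adjusted. Without QDG replicate 5, the highest in its group, the differences were -0.62 and -0.56 and both exact permutation tests passed the threshold, at an adjusted p of 0.0325. Other omissions of 1 library raised the adjusted exact permutation p to as much as 0.175 for QDG against SHR and 0.182 for QDG against WKY. With 5 RPM added in place of 1 the differences were -0.23 and -0.19. The added RPM draws the ratio toward 0, most where levels are low, so group differences in this ratio also depend on level. Per library, miR-136-5p rested on 3 to 20 reads and miR-136-3p on 4 to 26. SHR and WKY differed by 0.05, at an exact permutation p of 0.723.

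For miR-434 the 5p arm was the more abundant in every library other than WKY replicate 5. The log2 ratio averaged 0.58 ± 0.21 in QDG, 0.42 ± 0.33 in SHR and 0.27 ± 0.19 in WKY (SD, n = 6 each). QDG and WKY differed by 0.32, with an exact permutation p of 0.0260 and 0.0866 adjusted. Without QDG replicate 2 the difference was 0.39 at an adjusted exact permutation p of 0.0390. Other omissions of 1 library raised that adjusted exact permutation p to as much as 0.156. The differences of 0.16 between SHR and WKY and of 0.16 between QDG and SHR had exact permutation p-values of 0.325 and 0.342, both 0.410 adjusted. The smallest p that 6 libraries against 6 can give is 0.00216.

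**Figure D4:**
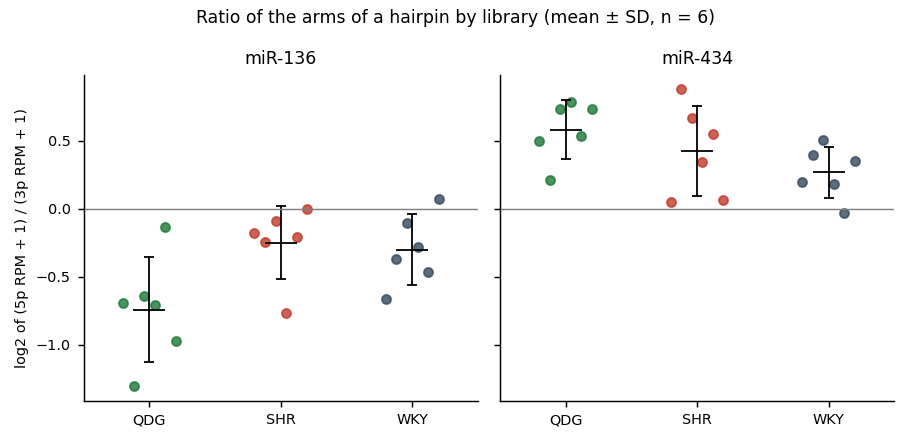
Log2 ratio of the 5p arm to the 3p arm, each with 1 RPM added (vertical axis), for miR-136 and miR-434 in QDG, SHR and WKY libraries. Points are libraries and bars the mean ± SD of 6; the miR-136 mean is -0.74 in QDG, against -0.25 in SHR and -0.30 in WKY, with overlapping ranges.

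Summed over the 10 miRNAs, the level was 117 ± 16.9 RPM in QDG, 95.1 ± 23.1 RPM in SHR and 184 ± 19.5 RPM in WKY (SD, n = 6 each). miR-127-3p made up 73.6 ± 1.80% of that sum in QDG, 73.9 ± 2.34% in SHR and 79.7 ± 2.29% in WKY. This share does not depend on library scaling, and it ranged from 71.8 to 76.4% in QDG, from 71.6 to 78.1% in SHR and from 76.8 to 82.7% in WKY. The QDG libraries thus lay under all WKY libraries, and the SHR range overlapped that of WKY. The remaining 9 miRNAs summed to 30.7 ± 3.56 RPM in QDG, 25.1 ± 8.003 RPM in SHR and 37.1 ± 3.24 RPM in WKY.

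Spread within groups differed between the members. In SHR, miR-434-5p had a coefficient of variation (SD over mean) of 42.9%, where read counting alone would give 14.7%, and miR-434-3p had 42.5%, against 17.5% from counting. In WKY the same miRNAs varied by 12.8% and 12.1%, against 13.7% and 15.2% from counting. miR-127-3p varied by 16.2% in QDG, 21.8% in SHR and 12.8% in WKY, beyond the 4.59%, 5.01% and 3.56% from counting. Among the scarce members, miR-136-3p varied by 21.0% and 38.6% in QDG and SHR, near the 23.7% and 31.6% from counting. Others lay further from counting error, on both sides of it. miR-341 varied by 11.6% in QDG, against 25.7% from counting, and miR-493-5p by 52.3% in SHR, against 36.5%. Counting error assumes independent reads, which PCR copies are not.

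SHR replicate 3 was the highest of its group for 4 of the 10 members and SHR replicate 4 for 5 others. Their summed levels were 119 and 130 RPM, against 76.7 to 87.1 RPM in the other 4 SHR libraries. miR-127-3p, for example, had 85.4 and 92.9 RPM in them. The 2 libraries also had the lowest leukocyte marker sums of the group (rows of miR-142, miR-150, miR-155 and miR-223), 1232 and 1234 RPM, against 1305 to 1420 RPM in the others, and the part of this in the result was not tested. This was 1 of 8 marker lists, and no other list placed both libraries at the same end of the group. Rows of the distal cluster of the region, described next, summed to 86.4 and 82.9 RPM in them. The other 4 SHR libraries had distal sums of 47.3 to 56.9 RPM. SHR replicates 3 and 4 were singled out after their values were seen, and no comparison was built on them.

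Further along the same strand lies the distal cluster of the region, from miR-379 onward, of which 22 miRNAs were tested. In SHR against WKY 10 of these 22 were lower and 0 higher by limma, beside 15.1% of the 410 miRNAs called lower. Their median log2 fold change was -0.44, against -0.07 for all tested miRNAs. In QDG against WKY 6 of the 22 were lower and 0 higher, beside 10.5% of the 410 called lower, with medians of -0.24 and -0.06. In QDG against SHR 0 were called and all 22 lay on the higher side, beside 54.1% of the 410, with medians of 0.24 and 0.02. Among the most abundant, miR-379-5p had log2 fold changes of -1.09 ± 0.19 in SHR against WKY (limma adjusted p of 0.000114) and -0.86 ± 0.19 in QDG against WKY (limma adjusted p of 0.00154). miR-411-5p had -0.90 ± 0.16 and -0.77 ± 0.16 in these comparisons, miR-541-5p had -0.99 ± 0.18 and -0.71 ± 0.18, and miR-300-3p had -0.55 ± 0.17 and -0.28 ± 0.17, the last of which was not called. The other proximal miRNAs, from the miR-540, miR-665, miR-673 and miR-770 hairpins, reached at most 1.08 RPM in sum in any library and were not tested.

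**Figure D5:**
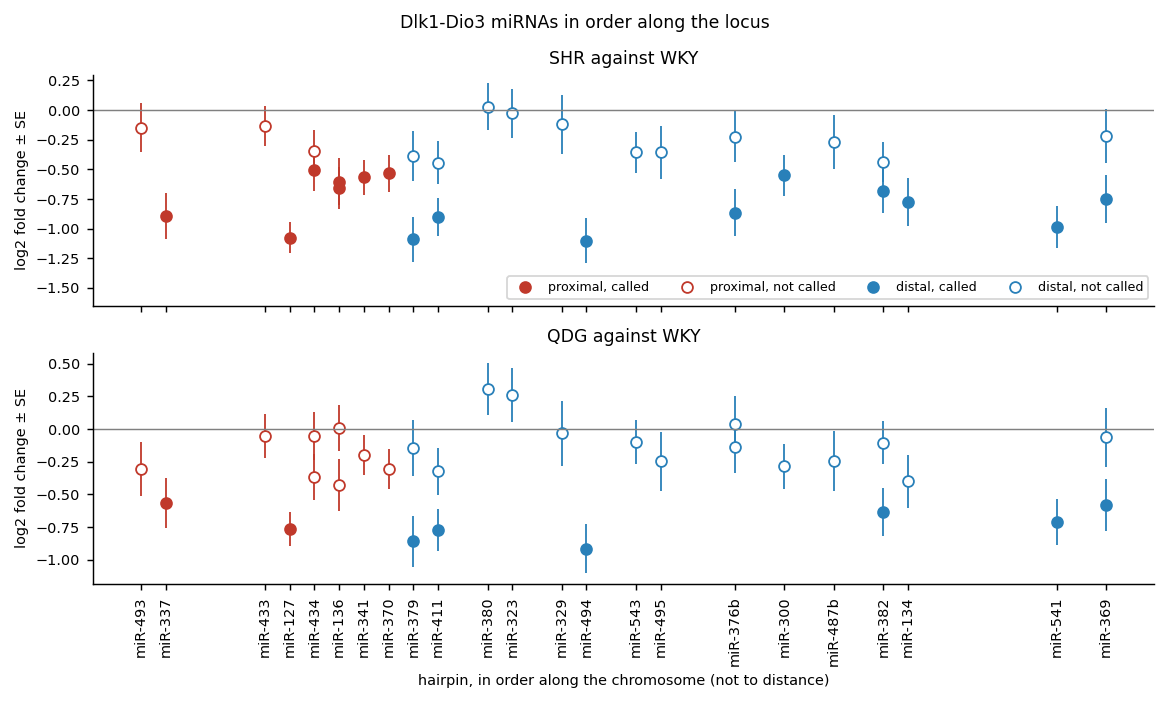
Log2 fold change of RPM + 1 ± SE (vertical axes) of the proximal (red) and distal (blue) Dlk1-Dio3 miRNAs against the order of their hairpins along the chromosome (horizontal axis, not to distance), for SHR and for QDG against WKY, which share the WKY libraries. Filled points have a limma adjusted p under 0.05: 7 of 10 proximal and 9 of the 20 distal miRNAs with a known place in SHR, 2 of 10 and 6 of 20 in QDG. The 2 arms of miR-409a, tested but with no place in the table of hairpins, are not drawn.

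By the mean absolute difference of log2(RPM + 1) centred over the 18 libraries, the 5 miRNAs of other hairpins with at least 10 RPM whose profiles lay nearest to miR-127-3p were miR-379-5p (0.217), miR-598-3p (0.219), miR-411-5p (0.227), miR-34c-5p (0.254) and miR-351-5p (0.277). The median over 248 miRNAs compared was 0.457. The distance of the other 9 members from miR-127-3p ran from 0.256 for miR-341 to 0.441 for miR-493-5p. All 9 averaged under the 10 RPM limit of that list, so their distances are not measured on like terms with it. Of the 5 nearest, miR-379-5p averaged 9.27 ± 3.21 RPM in QDG, 7.40 ± 1.18 RPM in SHR and 17.2 ± 4.49 RPM in WKY. miR-598-3p averaged 34.2 ± 2.67 RPM in QDG, 34.1 ± 4.69 RPM in SHR and 71.8 ± 8.26 RPM in WKY (SD, n = 6 each for both).

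The miRNAs of the region are abundant in brain, so neuronal markers were read beside them. The summed level of the neuron list (rows of miR-9a, miR-124, miR-128 and miR-137) ranged from 1147 to 1422 RPM in QDG, from 1079 to 1454 RPM in SHR and from 1110 to 1371 RPM in WKY. The neuron-restricted miR-124-3p reached at most 1.83 RPM, and miR-128-3p and miR-9a-5p carried the sum. miR-124-5p and miR-137-5p were at 0 in 14 and 15 of the 18 libraries. The smooth-muscle list (miR-143 and miR-145 rows) ranged from 53819 to 75150 RPM in QDG, from 44421 to 65776 RPM in SHR and from 50015 to 75140 RPM in WKY, and the fibroblast list from 11013 to 14869 RPM in QDG, from 11219 to 17046 RPM in SHR and from 11332 to 14481 RPM in WKY. The ranges of all 3 lists overlapped between the groups. Of 37 marker rows tested over 8 marker lists, 3 were higher in SHR than in WKY and 0 lower by limma. Of all 410 miRNAs, 33 were called higher. The 3 rows were the heart-muscle miR-1-3p (log2 fold change of 0.74) and miR-208b-3p (0.89), and the leukocyte miR-155-5p (0.48). The uncalled tested rows ran from -0.33 (miR-133b-3p) to 0.04 (miR-133a-5p) in the heart-muscle list. In the leukocyte list they ran from -0.24 (miR-150-5p) to 0.22 (miR-223-3p). In QDG against WKY the same 3 rows and the leukocyte miR-142-3p (0.38) were higher and 0 lower, beside 30 of the 410 miRNAs called higher. The part of all these markers in the results was not tested.

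Meg3 is the first maternal gene of the region, and in mouse its promoter is needed for the miRNAs downstream of it. The 300 bases around its annotated start, 250 before and 50 after, are shown as background. They lie at chr6:134273806-134274105 on the plus strand of GRCr8. The part of this promoter in the levels was not tested. Motifs found on either strand are in capitals.
Meg3 promoter: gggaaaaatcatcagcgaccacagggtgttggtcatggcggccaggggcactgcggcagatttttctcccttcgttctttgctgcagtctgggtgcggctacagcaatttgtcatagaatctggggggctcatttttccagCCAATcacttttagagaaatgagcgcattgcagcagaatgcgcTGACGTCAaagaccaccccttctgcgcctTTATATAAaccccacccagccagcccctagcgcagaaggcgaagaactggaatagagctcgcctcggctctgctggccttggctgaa
The cyclic AMP response element TGACGTCA, which reads the same on both strands, begins 66 bases before the start and occurs in 1.83% of 33469 RefSeq promoters of this length. CCAAT begins 109 bases before the start and occurs in 37.5% of them. TATATAA begins 36 bases before the start, overlaps a second match on the opposite strand, and occurs in 3.93%. A match describes these letters and shows no binding, and Meg3 RNA and Rtl1 mRNA were not measured in these small-RNA libraries.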

How the data were processed

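The authors' deposited values are a normalised read count per mature miRNA, per the file headers, used here as a signal in RPM. Libraries were made from 1 µg of total RNA with a NEBNext small RNA kit, per the labels' protocols, and FastQC, TopHat2 and limma are listed, with no roles or versions, per the submitters' processing notes. No label or header gives the genome build, the miRNA annotation, the treatment of reads that fit several miRNAs or the read total used as divisor. All 10782 of 10782 values came within 0.01 of a whole read after the library's smallest step was divided out, and these reads served the count tests and counting errors. Reads carry no molecular identifiers, so counting errors cover counting only.

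Groups and replicate numbers came from the titles. The design text gives 6 per group; where libraries were not from separate rats, p-values measure only the spread between libraries. Replicates of a group differed far beyond sampling noise (chi-square per degree of freedom of 45.5 to 673), so none was counted as 1 library deposited more than once; this does not show that they came from separate rats.

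limma 3.58.1 (R 4.3.3; trend and robust) was fitted to log2(RPM + 1) of all 18 libraries for the 410 miRNAs at 1 RPM or more in 6 or more libraries, with Benjamini-Hochberg adjustment and a threshold of 0.05. Arm ratios were compared with 2-sided exact permutation tests, adjusted over 6. Alternatives were other scalings, pseudocounts and filters, edgeR 4.0.16, DESeq2 1.42.0 and limma-voom on the reads, a fit of 2 groups, a replicate block and omitted libraries. The scripts were tested on simulated data. Sequences are from RefSeq (GRCr8), which matched 543 of 599 listed miRNAs.

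The members, the lists and the tests were chosen with earlier results of these data known. miRNAs named are all members and the rows of the same hairpins below the abundance limit, up to 4 distal examples (the most abundant with a call), and the 5 nearest profiles to miR-127-3p.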

Additional observations from a re-analysis of the deposited data

Results flagged for a closer look

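Of 45 sets of 6 libraries checked (members, arm ratios and sums), 3 had an end library far from the others, its gap to the nearest being over 0.625 of the range; chance gives about 1 in 20. miR-337-5p in SHR replicate 3 was at 2.16 RPM, with the next highest SHR library at 1.20 RPM and the lowest at 0.699 RPM; its SHR against WKY call held without that library. The log2 ratio of the miR-136 arms was -0.77 in SHR replicate 4, with the nearest SHR library at -0.24 and the highest at 0.00. In WKY replicate 4 the 9 members other than miR-127-3p summed to 30.7 RPM, with the nearest WKY library at 37.4 RPM and the highest at 39.2 RPM.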

How the results depend on the processing

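Over 32 alternatives (18 of them leaving out 1 library), 881 of 936 fold changes of members kept their direction and their side of the threshold, 44 lost a call, 1 gained it and 10 changed sign. In SHR against WKY the members called were 7, and 5 to 8 when 1 library was left out, 4 by DESeq2 and 1 under a filter of 10 RPM, which left 2 members to test. In QDG against WKY they were 2, and 1 under RLE scaling, upper-quartile scaling, no filter, the 10 RPM filter, edgeR, DESeq2, limma-voom, the replicate block, and without WKY replicate 1 and SHR replicate 5 together (miR-127-3p in each); leaving out 1 library gave 1 to 2. In QDG against SHR the count was 0 throughout. Of the fold changes that changed sign, that of miR-493-5p in QDG against SHR was -0.16 as reported. The others were near 0, from -0.05 to 0.01. Upper-quartile scaling turned miR-434-5p to 0.0475 and miR-433-3p to 0.0121 in QDG against WKY. With 1 library left out, QDG against WKY ran from -0.0647 to 0.0596 for miR-136-3p and from -0.135 to 0.0254 for miR-433-3p, and QDG against SHR ran from -0.259 to 0.00103 for miR-493-5p. The arm differences then ran from -0.0179 to 0.158 (miR-136, SHR against WKY), -0.62 to -0.38 (miR-136, QDG against SHR), -0.56 to -0.33 (miR-136, QDG against WKY) and 0.26 to 0.39 (miR-434, QDG against WKY). The cause of these shifts was not tested. No label says that same-numbered libraries belong together. Their deviations correlated by -0.17 to 0.23 in SHR against WKY, -0.13 to 0.12 in QDG against SHR and 0.004 to 0.20 in QDG against WKY, where all 6 were above 0. These weak correlations do not decide whether the libraries were paired, and pairing was used only in the replicate block. The replicate block gave 93 calls over all miRNAs in SHR against WKY and 77 in QDG against WKY, against 95 and 73 without it, with 6 and 1 members called (miR-434-3p at a limma adjusted p of 0.0595 and miR-337-5p at 0.0594 were not). The split of all calls in QDG against WKY, 30 higher and 43 lower, became 55 and 28 under upper-quartile scaling. The scaling to reads without the 10 most abundant miRNAs was added after the data were seen. The 7 scarcest members, at 1 to 26 reads per library, cannot show small differences.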
